A study of Zeugodacus cucurbitae with 6 samples.

Results

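The genes described here were high in a single library of non-irradiated melon fly (*Zeugodacus cucurbitae*) larvae and low in the other 5 libraries of the experiment. A gene belonged to the set when its level in non-irradiated replicate 3 was at least 1 CPM (counts of the gene per 1000000 gene counts of its library) and at least 4 times its CPM in each other library. Of 12834 genes counted, 50 met this rule. A list of 7 genes was set aside, of which 3 met it (Eh_1, LOC105216023 and LOC105214460), and 47 members remained. Because the members were chosen by these levels, the levels are given as a description, without a test.

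Irradiated larvae came from eggs of about 25 h that had received 50 Gy from a 60Co source at 1 Gy per minute, and non-irradiated larvae came from eggs of the same age given 0 Gy. Each group had 3 replicates, and each library was made from 20 pooled 3rd instar larvae reared on artificial diet. The replicates were composed of dishes of eggs, so p-values measure the spread between these pools and not between single larvae. Sex and hours since the last moult were not given in the labels, and a pool of whole larvae cannot separate fewer cells of a type from less RNA per cell.

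Libraries held 17191722, 18311658 and 17701282 gene counts in irradiated replicates 1 to 3, and 13192748, 14115043 and 16344295 in non-irradiated replicates 1 to 3. A single count was therefore worth 0.0546 to 0.0758 CPM. Irradiated replicates 1 and 2 stood unusually close to each other: their mean squared difference, in units of counting error, was 2.86, where counting error alone gives about 1, and it was at least 88.4 in the other 14 pairs of libraries. They differed by more than counting error, which does not show that they came from independent pools. They were kept as the separate replicates that the labels give. P-values here count them as 2 pools and could be too low if they were not independent. Several results that rest on them are also given for the pair summed. Fat body and muscle transcripts were abundant in every library, with the lipid carrier gene Rfabg_1 at 9710 to 10151 CPM in irradiated and 7928 to 8906 CPM in non-irradiated larvae.

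Insect larvae shed their cuticle under the control of ecdysteroid pulses. A fall in 20-hydroxyecdysone releases ecdysis peptides such as eclosion hormone, while chitinases digest the chitin of the old cuticle before it is shed. The last larval instar of flies passes from a feeding to a wandering phase before the puparium forms, and many transcripts change quickly in that interval. The symbols of the members were therefore examined for genes of the moult and of developmental timing.

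Together the 47 members took 0.441% of the counts of non-irradiated replicate 3 (95% exact binomial interval 0.438 to 0.445%, 72143 counts). Their share was 0.026, 0.0248 and 0.0349% in irradiated replicates 1 to 3, and 0.0193 and 0.0144% in non-irradiated replicates 1 and 2. The share in non-irradiated replicate 3 was 12.6 times that of the next library, irradiated replicate 3, and 3 members held 42.3% of it. Intervals here and below cover binomial counting error only. Reads copied by PCR are not independent molecules, so the true counting error can be wider. The rule chose the members by their ratios, so intervals of those ratios are a description.

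The level of a member in non-irradiated replicate 3 ranged from 1.22 to 820 CPM with a median of 20.4 CPM. There were 11 members above 100 CPM, 17 between 10 and 100 CPM and 19 below 10 CPM. The median member was at 0.465, 0.491 and 0.395 CPM in irradiated replicates 1 to 3 and at 0.379 and 0.283 CPM in non-irradiated replicates 1 and 2. CPM values are not divided by gene length, so they order the members by reads and not by transcripts.

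**Figure D1:**
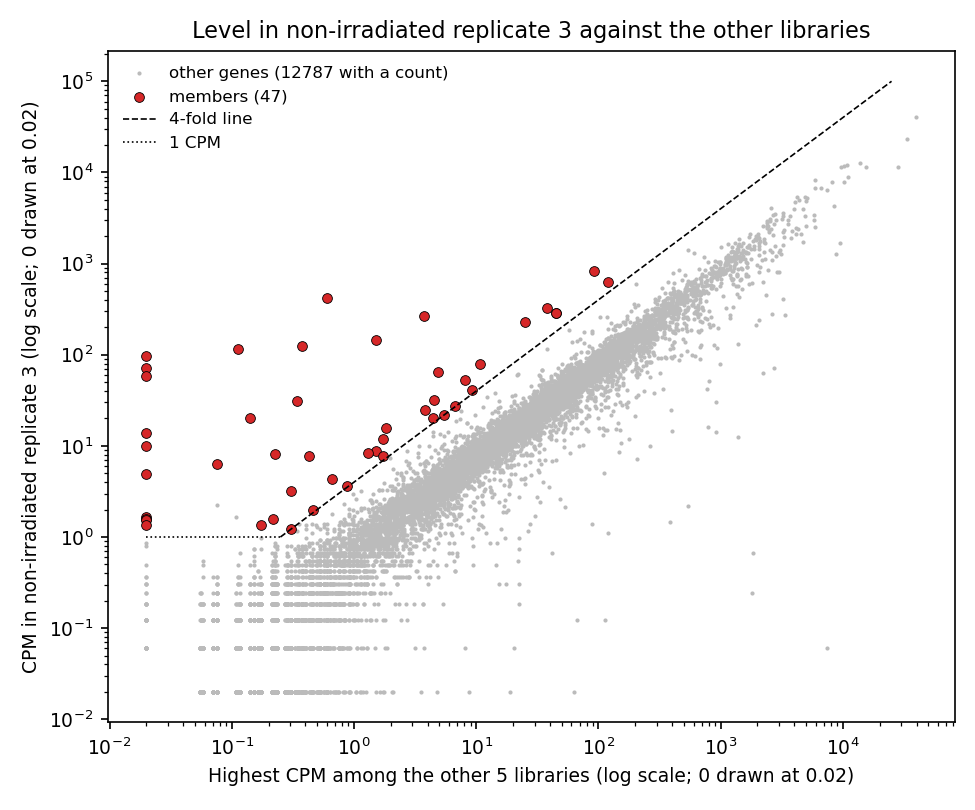
Level of every gene in non-irradiated replicate 3 (vertical axis, CPM, log scale) against its highest level in the other 5 libraries (horizontal axis, CPM, log scale). The 47 members lie above the line of a 4-fold ratio and the line of 1 CPM that chose them, and 10 of them had no count in any other library.

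A count in at least 1 other library was seen for 37 members, and 25 members were counted in all 6 libraries. For the 37 the ratio of non-irradiated replicate 3 to the next library had a median of 7.28. It was between 4 and 5 for 8 members, between 5 and 10 for 17, between 10 and 50 for 4 (LOC105221223, LOC105215632, LOC105216029 and LOC105211447) and above 50 for 8. The next library of these 8 held 1 to 66 counts of them. The set thus joined genes at the edge of the rule with genes that were close to silent elsewhere, and 25 members stayed below 1 CPM in all 5 other libraries.

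The rule cut through a continuous range. Just inside it stood LOC105218653 with a ratio of 4.01, Cyp12b2_1 with 4.04 and Gld_3 with 4.13, and just outside it LOC105221527 with 3.97, LOC105213348 with 3.68 and LOC114804916 with 3.43. For the level, the lowest members were Cyp12b2_1 at 1.22 CPM and LOC105215494 at 1.35 CPM, while LOC105220662 at 0.979 CPM and LOC105214924 at 0.857 CPM met the ratio and missed the level.

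Among the symbols of the members, 1 (Cht3_11) pointed to the cuticle, 1 (Gld_3) to an enzyme used at adult emergence in *Drosophila*, and none to the hormones that time the moult. That last count leaves out Eh_1, named after eclosion hormone, which met the rule and was set aside beforehand. Only 4 of the 47 members (8.51%) carried a symbol other than a LOC number, against 1033 of all 12834 genes (8.05%). The other 43 were known by a LOC number alone, and the sources used here gave no product for them, so no role is assigned to them.

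Cht3_11 bears the name of a chitinase, an enzyme that breaks down chitin. It had 405 counts in non-irradiated replicate 3, against 54, 68 and 58 counts in irradiated replicates 1 to 3 and 50 and 28 counts in non-irradiated replicates 1 and 2. Its ratio to the next library was 6.54 (95% exact interval 4.87 to 8.96), and the 5 other libraries lay close together at 1.98 to 3.79 CPM, irradiated and non-irradiated alike. Of the 4 other chitinase genes with a matching name none showed this pattern, and their ratios of non-irradiated replicate 3 to the highest other library were 0.71 to 0.90. Cht3_12, the most abundant of them in counts, had 132 CPM in non-irradiated replicate 3, 145, 146 and 106 CPM in irradiated larvae, and 182 and 90.5 CPM in the other non-irradiated pools.

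Egfl8_0 is named after a vertebrate protein with domains like epidermal growth factor. It had 523 counts in non-irradiated replicate 3, against 33, 37 and 35 in irradiated replicates 1 to 3 and 60 and 20 in non-irradiated replicates 1 and 2. The ratio to the next library was 7.04 (5.38 to 9.35), and that library was non-irradiated replicate 1. No other gene of the table carried this symbol.

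Gld_3 bears the name of glucose dehydrogenase, an enzyme that in *Drosophila* is needed for the adult to leave the puparium. It had 59 counts in non-irradiated replicate 3, against 9, 16 and 13 in irradiated replicates 1 to 3 and 7 and 5 in non-irradiated replicates 1 and 2. The ratio of 4.13 had an interval of 2.35 to 7.69, which reaches below the 4-fold rule. In the 7 other genes of this name the ratio was 0.43 to 1.18, so that only Gld_11 was higher in non-irradiated replicate 3 than in every other library.

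Cyp12b2_1 bears the name of a cytochrome P450 of the mitochondrial type. It was the lowest member, with 20 counts in non-irradiated replicate 3, against 0, 2 and 0 in irradiated replicates 1 to 3 and 4 and 1 in non-irradiated replicates 1 and 2. The interval of its ratio, 1.35 to 16.2 around 4.04, shows how little a gene of this depth can be placed. The 6 other Cyp12 genes had ratios of 0.13 to 0.69 and were all lower in non-irradiated replicate 3 than in the highest other library.

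**Figure D2:**
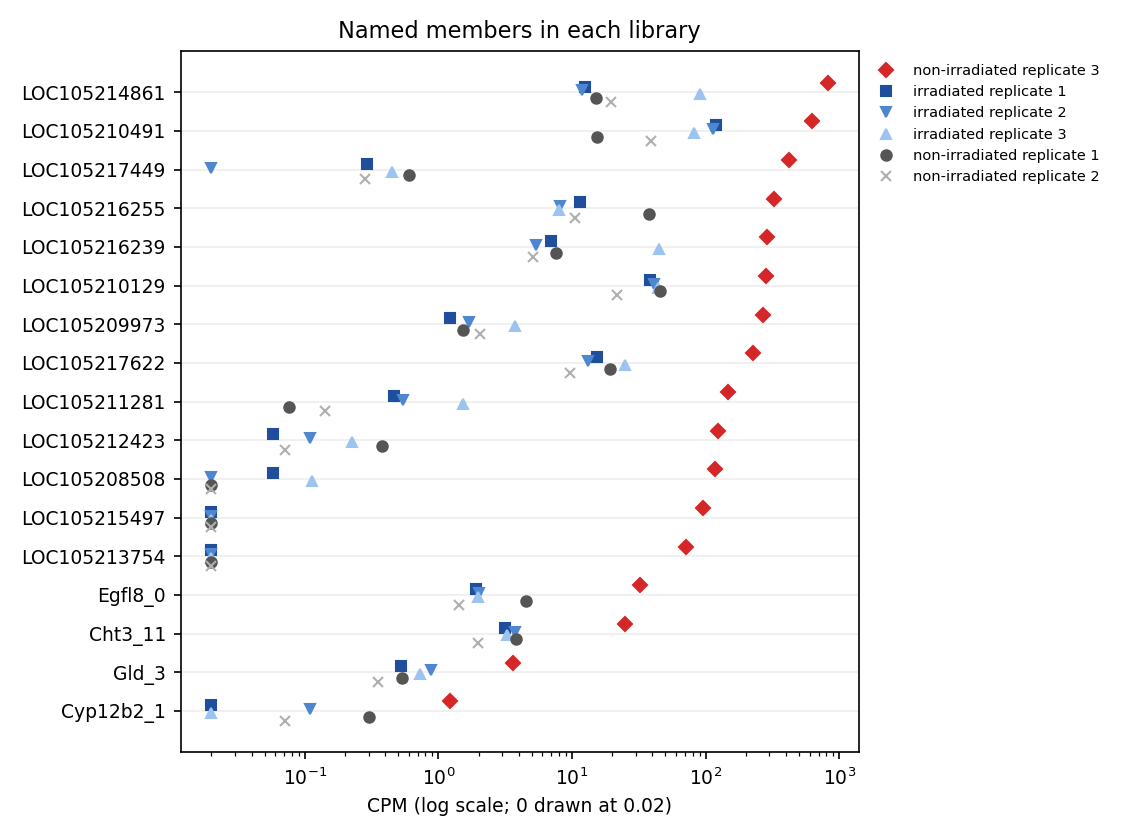
Level (CPM, log scale) of the named members in each library, with non-irradiated replicate 3, irradiated replicates 1 to 3 and non-irradiated replicates 1 and 2 as separate points. Cht3_11 and Egfl8_0 keep 1.42 to 4.55 CPM in the other 5 libraries, while Gld_3, LOC105217449 and LOC105212423 stay below 1 CPM in each of them.

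The question of timing was also put to 8 lists of symbols for ecdysis peptides, ecdysteroid synthesis, ecdysone response, juvenile hormone, cuticle and chitin, tanning, storage and glue proteins, and imaginal disc patterning. These lists matched 24 genes, of which Cht3_11 was the only member. Besides Eh_1, which was set aside, the 22 others had ratios of non-irradiated replicate 3 to the highest other library of 0.26 to 1.05. Symbols were matched without regard to case, so Tor, Phm_1, T_5 and Gl may name other genes than the *Drosophila* genes meant, and Hex-t2_3 was caught by the start of its symbol only.

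Of the cuticle and chitin list, 1 of 10 genes (10%) was highest in non-irradiated replicate 3, against 1353 of 9363 genes (14.5%) with a mean of at least 1 CPM. Of these 10, Chsy1_1 and Muc2_2 were caught by the start of their symbols and may not be cuticle or chitin genes. Kr-h1_3, named after the juvenile hormone response gene Kr-h1, had 62.8 CPM in non-irradiated replicate 3, 66.7, 60.6 and 55.9 CPM in irradiated larvae and 76.3 and 50.9 CPM in the other non-irradiated pools. Hr78_0, named after a nuclear receptor of the ecdysone response, had 24.9 CPM in non-irradiated replicate 3, 21.8, 18.3 and 21 CPM in irradiated larvae and 30.5 and 14.9 CPM in the other non-irradiated pools. In both genes non-irradiated replicate 3 lay within the range of the other libraries. Most genes known to time a moult were not matched by a symbol and were not analysed here.

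Larval storage and glue proteins, which *Drosophila* larvae make late in the last instar, were not represented. The only symbol their list caught was Hex-t2_3, which bears the *Drosophila* name of a hexokinase and had 1 count in non-irradiated replicate 3, 4, 0 and 0 in irradiated replicates and 1 and 0 in non-irradiated replicates 1 and 2.

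The most abundant members by reads had only LOC numbers. LOC105214861 had 820 CPM in non-irradiated replicate 3, against 12.5, 11.9 and 91.2 CPM in irradiated replicates 1 to 3 and 15.1 and 19.6 CPM in non-irradiated replicates 1 and 2. LOC105216239 had 286 CPM in non-irradiated replicate 3, against 6.92, 5.35 and 45.1 CPM in irradiated replicates 1 to 3 and 7.58 and 5.10 CPM in non-irradiated replicates 1 and 2. In both genes irradiated replicate 3 was the second highest library, at more than 5 times the level of the other irradiated replicates. Across the set, irradiated replicate 3 exceeded both other irradiated replicates in 19 of the 47 members. The share over all genes was not computed, so nothing about the set is read from this count.

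LOC105210491 showed another order. It had 629 CPM in non-irradiated replicate 3, against 120, 114 and 82 CPM in irradiated replicates 1 to 3 and 15.4 and 39.2 CPM in non-irradiated replicates 1 and 2. All 3 irradiated pools thus lay above both remaining non-irradiated pools. LOC105216255 had 326 CPM in non-irradiated replicate 3, 11.5, 8.08 and 8.02 CPM in irradiated larvae and 37.6 and 10.5 CPM in non-irradiated replicates 1 and 2. Here the groups overlapped, and non-irradiated replicate 1 alone stood above all 3 irradiated pools.

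LOC105210129 and LOC105217622 had an appreciable level in every library. LOC105210129 had 285 CPM in non-irradiated replicate 3, against 38.6, 41.1 and 43.7 CPM in irradiated replicates 1 to 3 and 45.3 and 21.9 CPM in non-irradiated replicates 1 and 2. LOC105217622 had 227 CPM in non-irradiated replicate 3, against 15.4, 13.2 and 24.9 CPM in irradiated replicates 1 to 3 and 19.1 and 9.71 CPM in non-irradiated replicates 1 and 2. The ratio to the next library was 6.28 for LOC105210129 and 9.14 for LOC105217622, and the groups overlapped among the remaining pools.

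At the other end stood members with high counts in 1 pool and almost none elsewhere. LOC105217449 had 6838 counts in non-irradiated replicate 3, against 5, 0 and 8 in irradiated replicates 1 to 3 and 8 and 4 in non-irradiated replicates 1 and 2. Its ratio to the next library was 690 (350 to 1599). LOC105211281 had 2388 counts in non-irradiated replicate 3, against 8, 10 and 27 in irradiated replicates and 1 and 2 in the other non-irradiated ones, a ratio of 95.8 (65.7 to 146). These genes were thus counted at a trace level in most other pools.

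LOC105212423 had 2030 counts in non-irradiated replicate 3, against 1, 2 and 4 in irradiated replicates 1 to 3 and 5 and 1 in non-irradiated replicates 1 and 2, with a ratio of 328 (140 to 1010). LOC105208508 had 1906 counts in non-irradiated replicate 3, against 1, 0 and 2 in irradiated replicates and 0 and 0 in non-irradiated replicates 1 and 2. Against the other 5 libraries pooled, the ratio of LOC105208508 was 3130 (1069 to 15190). Both genes were close to silent in the other pools. LOC105209973, with 269 CPM in non-irradiated replicate 3, had 1.22, 1.69 and 3.73 CPM in irradiated larvae and 1.52 and 2.05 CPM in the other non-irradiated pools, a ratio of 72.1 (56.5 to 93.3).

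A further 10 members had no count in any of the other 5 libraries. Folds for these genes are lower bounds, taken against 3 counts per library, which corresponds to 0.164 to 0.227 CPM and is about the upper 95% limit for a count of 0. LOC105215497 had 1564 counts (95.7 CPM) in non-irradiated replicate 3 and was at least 421-fold higher there than that limit. LOC105213754 had 1161 counts (71 CPM) and was at least 312-fold higher. The lowest bound among the 10 was 5.92, for LOC105215494 with 22 counts. Genes with 10 or more counts in 1 library and none elsewhere numbered 12 for non-irradiated replicate 3, the 10 members with LOC105214924 and LOC105215495. In the other libraries no gene with 0 counts elsewhere had more than 23 counts, the value reached in non-irradiated replicate 1.

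The members varied widely in length. Their median length, computed from counts and FPKM, was 1190 bp (range 179 to 9413 bp), against 1820 bp over all genes, and 28 of the 47 were shorter than that median. The 10 members at 0 elsewhere had a median of 548 bp and a range of 179 to 1606 bp. Length was not part of the rule.

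Several members were neighbours in the genome. Of the 47 members, 43 (all but LOC105210491, LOC105213750, LOC105213751 and LOC105218017) were found in the RefSeq gene order of assembly idZeuCucr1.2, which is not the assembly used for counting and served here only for gene order and type. In that order 13 of 43 members (30.2%) had another member within 5 genes, against 258 of 11789 other genes (2.19%). These 13 members formed 4 runs, which are named here for their place after their values had been seen. All 8 of the placed members with no count elsewhere lay in the runs.

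The run around LOC105215497 held LOC105215496, LOC105215497, LOC105215499, LOC105215495 and LOC105215494, with LOC128919760 among them, which had no value in the table. In non-irradiated replicate 3 these genes had 966, 1564, 80, 13 and 22 counts in that order, and every other library had 0 for each of them. LOC105215495 missed the rule only by its level. The run of LOC105213752, a long non-coding RNA gene, and LOC105213754 was alike, with 26 and 1161 counts in non-irradiated replicate 3 and 0 in each other library. LOC105213750 and LOC105213751, which carry adjoining numbers and were not placed, had 162 and 25 counts there and 0 elsewhere.

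Another run held 6 genes, of which LOC105208503, LOC105208508 and LOC105208507 were members. LOC105208507 had 224 counts and LOC105208503 had 27 counts in non-irradiated replicate 3, and both had 0 in each other library. The genes between them had 1 (LOC105208504), 6 (LOC105208506) and 6 counts (LOC105208509) in non-irradiated replicate 3, and no other library held more than the 2 counts of LOC105208506 in non-irradiated replicate 1. The whole run was thus counted almost exclusively in 1 pool.

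The remaining run mixed members with genes of other patterns. LOC105209948, LOC105209973, LOC105210010 and LOC105209999 were members, with 334, 4391, 505 and 26 counts in non-irradiated replicate 3. LOC105209958, which lies between them, had 1067 counts in non-irradiated replicate 3, against 2161, 2346 and 455 in irradiated replicates 1 to 3 and 3046 and 3491 in non-irradiated replicates 1 and 2. LOC105209989 had 16 counts in non-irradiated replicate 3, against 126, 119 and 303 in irradiated replicates and 34 and 20 in non-irradiated replicates 1 and 2. Both were lower in non-irradiated replicate 3 than in most other pools, and high counts were not shared by all neighbours. Of the 8 measured genes in the runs that were not members, 5 were highest in non-irradiated replicate 3 (LOC105208504, LOC105208506, LOC105208509, LOC105209952 and LOC105215495), each with 1 to 13 counts there. Neighbouring genes can be copies of each other, and how reads that fit several copies were counted is not given in the sources used here, so the split of counts within a run is uncertain. The labelled library kit does not mark strand, so reads of overlapping genes on opposite strands cannot be told apart.

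**Figure D3:**
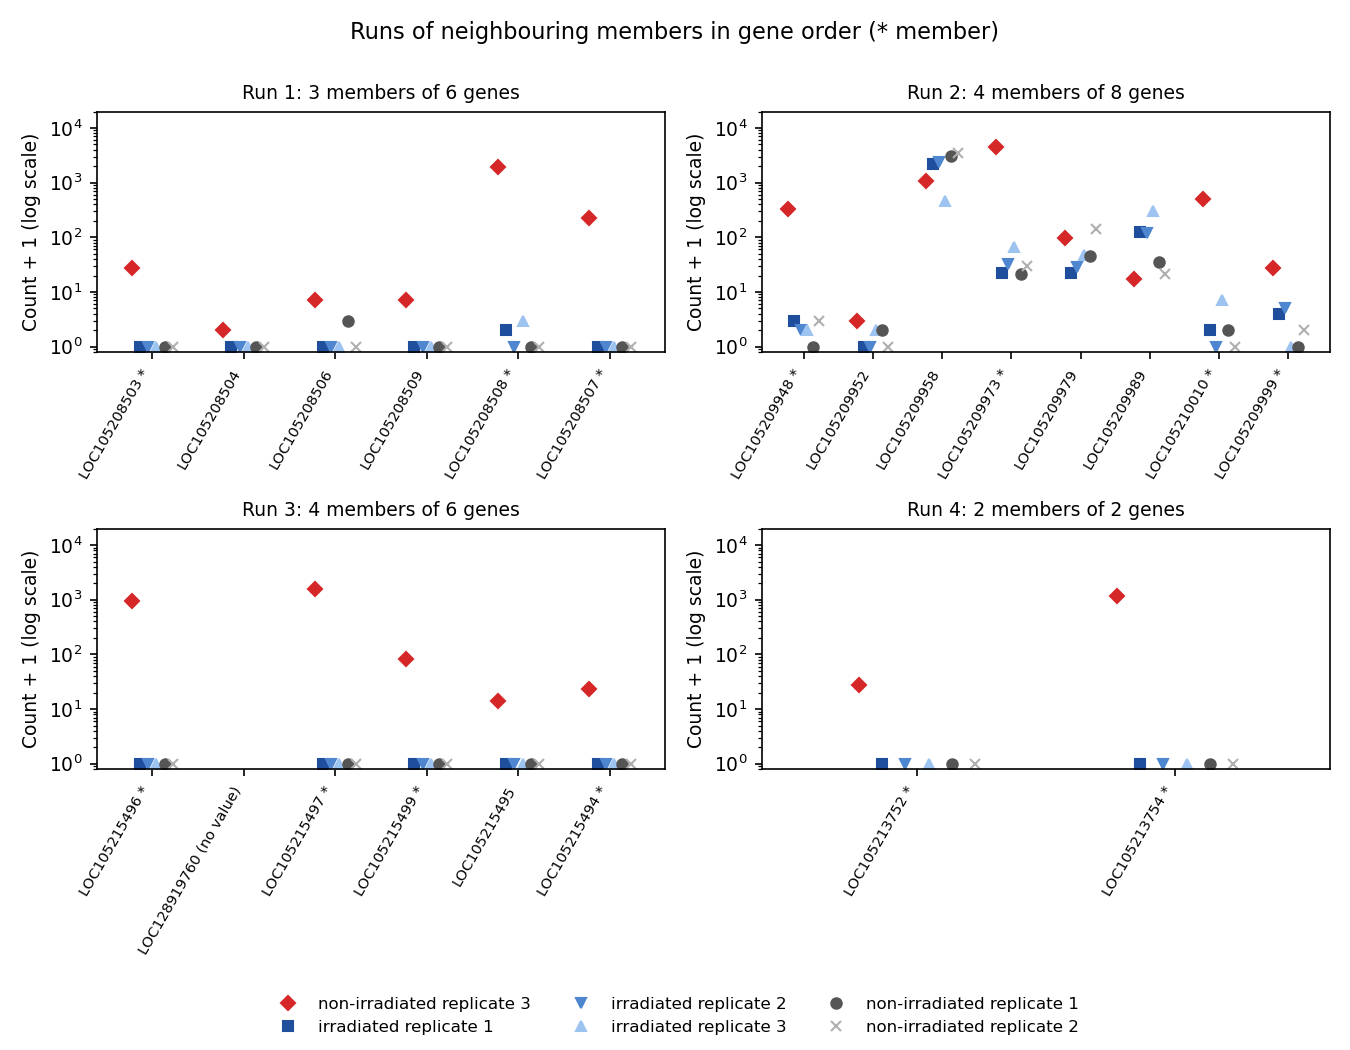
Counts (log scale of count plus 1) of the genes in the 4 runs, in gene order, with non-irradiated replicate 3 beside irradiated replicates 1 to 3 and non-irradiated replicates 1 and 2. In the runs that hold LOC105215497 and LOC105213754 every other library has 0 counts, while LOC105209958 has 455 to 3491 counts in each library outside non-irradiated replicate 3.

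Marker genes of tissues did not share the pattern of the members. The 8 marker lists, for male and female germ line, muscle, nervous system, adult eye and antenna, gut, fat body and salivary gland, matched 19 genes, none of them a member. Among the fat body matches, Ypo3031_3 was caught by the start of its symbol and is probably no marker. The highest ratio of non-irradiated replicate 3 to the next library was 1.30, for Arr1. The testis and salivary gland lists matched no gene, so these tissues could not be examined. The female germ line list matched only Yp3_0 and Yp3_1, which the fat body list also holds, so it could not single out that tissue.

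By CPM, muscle transcripts were highest in the same library by a small margin, with ratios to the highest other library of 0.98 to 1.08. Other scalings were not tried for them. The 4 muscle genes summed to 10171 CPM in non-irradiated replicate 3, against 8897, 8870 and 6339 CPM in irradiated replicates 1 to 3 and 8188 and 9689 CPM in non-irradiated replicates 1 and 2, and 3 of the 4 were highest in non-irradiated replicate 3. The gut list, of 2 amylase genes, summed to 10.6 CPM in non-irradiated replicate 3, against 20.2, 23.8 and 15.3 CPM in irradiated and 32.1 and 18 CPM in the other non-irradiated larvae. The part of tissue amounts in the members' levels was not tested.

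Other libraries also had genes of their own. Under the same rule, with no gene left out, 50 genes were high only in non-irradiated replicate 3, 31 only in irradiated replicate 3, 21 only in non-irradiated replicate 1 and 8 only in non-irradiated replicate 2. The rule gave 1 gene for irradiated replicate 1 and 0 for irradiated replicate 2, which stood close to each other, and 7 genes for these 2 libraries summed. Above 100 CPM there were 11 such genes in non-irradiated replicate 3, 7 in irradiated replicate 3 and 1 in each of non-irradiated replicates 1 and 2. The highest level was 820 CPM in non-irradiated replicate 3, against 7386 CPM in irradiated replicate 3.

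**Figure D4:**
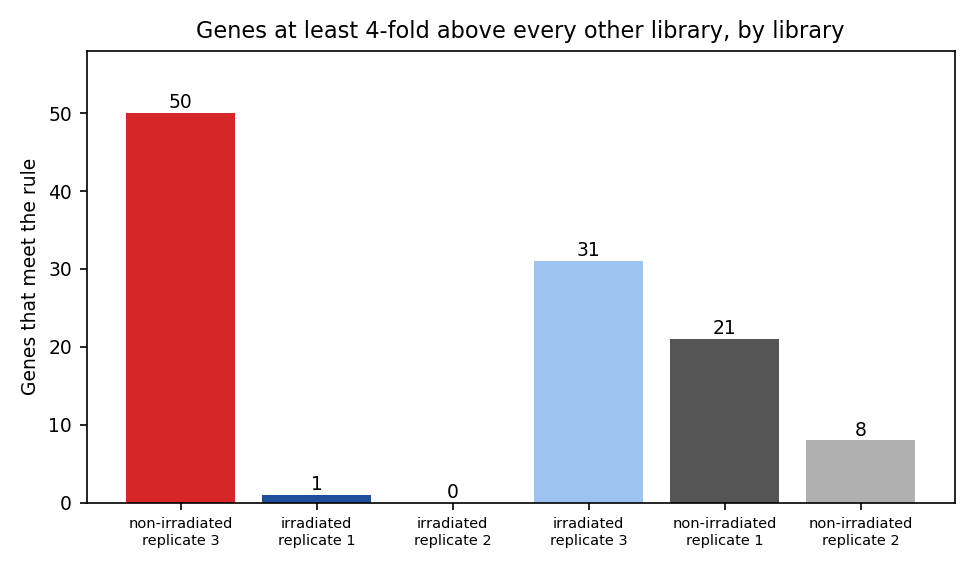
Number of genes (vertical axis) that met the same rule in each library in turn, with no gene left out. Non-irradiated replicate 3 has 50 such genes, and the others have 1, 0 and 31 in irradiated replicates 1 to 3 and 21 and 8 in non-irradiated replicates 1 and 2.

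The irradiation contrast of all 6 libraries contains the library that chose the members, and its values for them are a description. In edgeR's quasi-likelihood test 365 of 9768 genes (3.74%) passed an adjusted p of 0.05 after Benjamini-Hochberg adjustment, and 0 of the 23 members tested did. At an unadjusted p under 0.05 there were 4 members (LOC105215109, LOC105216255, LOC105218653 and LOC105209973) and 2050 of all genes, and the lowest adjusted p of a member was 0.158, for LOC105215109. All 23 had a negative log2 fold change of irradiated over non-irradiated, from -5.37 to -1.09 with a median of -2.11, which the choice of members fixes, against a median of -0.01 over all genes. The other 24 members did not pass the filter on low counts.

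DESeq2 gave a p-value for 24 of the 47 members in this contrast and none for the others, against 12797 of all 12834 genes. LOC105219295, LOC105221223 and LOC105210491, which passed edgeR's filter on low counts, were among the members without one. The members without a DESeq2 p-value were thus not simply those with low counts. Of 12797 genes with a p-value it placed 480 (3.75%) below the adjusted threshold and lower in irradiated larvae. Among the 24 members it placed 3 below the threshold, all lower in irradiated larvae. These were LOC105215109 (log2 fold change -2.46, adjusted p = 0.0239), LOC105216255 (-3.76, adjusted p = 0.0326) and LOC105218653 (-2.25, adjusted p = 0.0345), named after their values were seen. Nothing is read from these counts, since the rule used the same libraries.

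Without non-irradiated replicate 3 the contrast of irradiated larvae with non-irradiated replicates 1 and 2 rests on lower values of the members. In edgeR's quasi-likelihood test 151 of 9903 genes (1.52%) were higher in irradiated larvae at an adjusted p under 0.05, and 1 of the 23 members tested was among them. Of the 23, 14 had a log2 fold change above 0 (60.9%, against 49.1% of all genes) and 9 below 0. The range was -1.30 to 2.50 and the median 0.33, against a median of -0.01 over all genes. At an unadjusted p under 0.05 there were 4 of 23 members (LOC105219295, LOC105221223, LOC105210491 and LOC105216255), against 24% of all genes. The rule also bounded these 5 libraries from above, so a member could not be high in any of them. The median of the members was 0.27 with irradiated replicates 1 and 2 summed, where 10 of 21 were below 0. By DESeq2 it was 0.10, with 16 of 37 below 0. With 1 more library left out it ranged from 0.0012 to 0.7713 in edgeR. The size of this lean thus depended on the processing.

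The member called was LOC105219295, named after its values were seen. It had 78.9 CPM in non-irradiated replicate 3, 9.71, 10.7 and 10.8 CPM in irradiated replicates 1 to 3 and 3.64 and 3.68 CPM in non-irradiated replicates 1 and 2. All 3 irradiated pools lay above both remaining non-irradiated pools, with a log2 fold change of 1.54 (SE 0.16) and an adjusted p of 0.0192 by edgeR's quasi-likelihood test. With all 6 libraries the log2 fold change was -1.48 (SE 1.21, adjusted p = 0.548 by edgeR's quasi-likelihood test). The fit without non-irradiated replicate 3 leaves out most of the spread between non-irradiated pools in this gene. No effect of irradiation is therefore read from the call. The call was lost without irradiated replicate 1 (1.58, adjusted p = 0.119), without irradiated replicate 2 (1.51, adjusted p = 0.128) and with these 2 libraries summed (1.55, adjusted p = 0.125).

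All 14 members with a value above 0 without non-irradiated replicate 3 had a negative one with it, as the choice of members fixes. After LOC105219295, the lowest adjusted p-values were those of LOC105221223 and LOC105210491, which did not pass the threshold. LOC105210491 had a log2 fold change of 1.94 (SE 0.48, adjusted p = 0.0895 by edgeR) without non-irradiated replicate 3 and of -1.13 with it. LOC105221223 had 63.9 CPM in non-irradiated replicate 3, 3.37, 3.33 and 4.86 CPM in irradiated larvae and 0.985 and 1.20 CPM in non-irradiated replicates 1 and 2, with a log2 fold change of 1.83 (SE 0.33, adjusted p = 0.0527 by edgeR) without non-irradiated replicate 3 and of -2.53 with it. LOC105216255 had -1.30 (SE 0.48, adjusted p = 0.179 by edgeR) without that library and -3.76 with it, and its value was -0.26 when non-irradiated replicate 1 was left out as well. With irradiated replicates 1 and 2 summed, edgeR's adjusted p without non-irradiated replicate 3 was 0.254 for LOC105210491 and 0.186 for LOC105221223.

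The symbol-named members that could be tested did not pass the threshold without non-irradiated replicate 3. By edgeR, the log2 fold change of irradiated over the 2 remaining non-irradiated pools was 0.28 (SE 0.29, adjusted p = 0.606) for Cht3_11, -0.52 (SE 0.45, adjusted p = 0.535) for Egfl8_0 and 0.72 (SE 0.49, adjusted p = 0.421) for Gld_3. With all 6 libraries their values were -1.60, -2.68 and -1.09 in that order. Cyp12b2_1 did not pass the filter on low counts in this contrast.

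**Figure D5:**
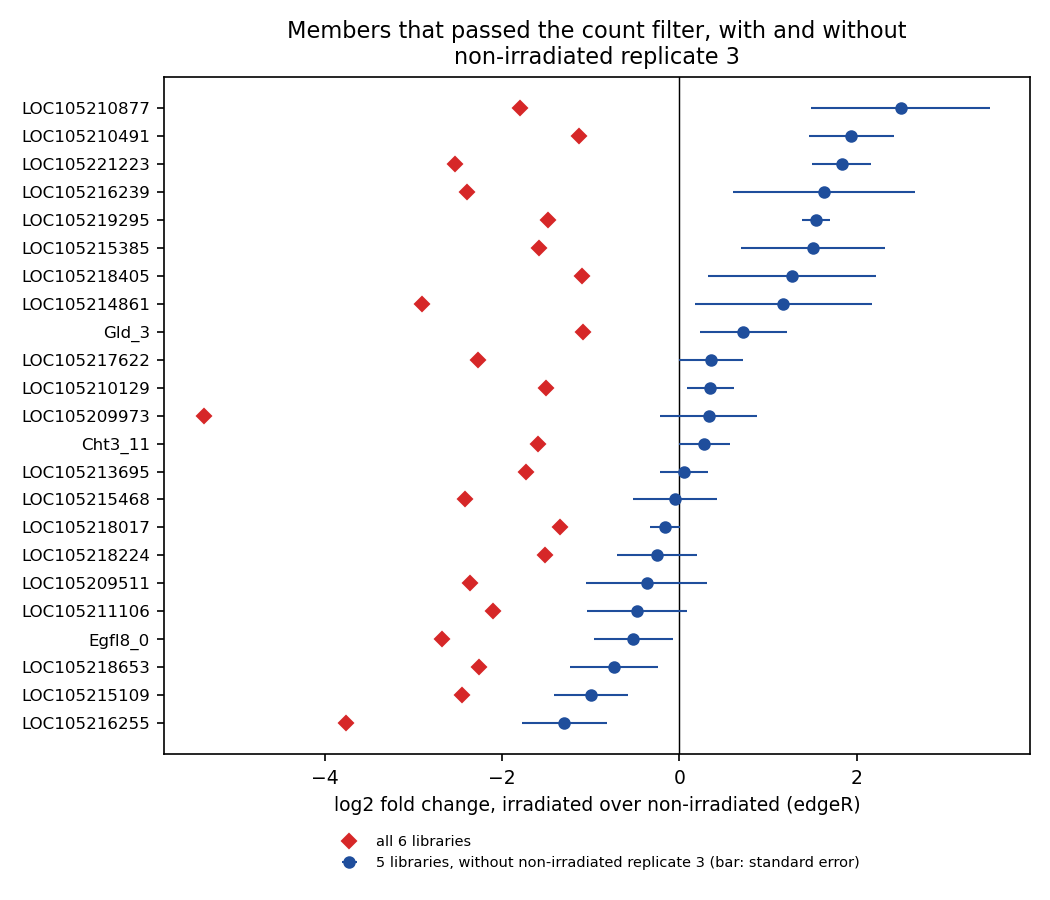
Log2 fold change of irradiated over non-irradiated larvae for the 23 members tested without non-irradiated replicate 3 and for the same genes with all 6 libraries. All values with 6 libraries are negative, as the choice of members fixes, and 14 of 23 are above 0 when non-irradiated replicate 3 is left out.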

How the data were processed

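The authors sequenced poly-A RNA of 6 pools of 20 larvae as 150 bp paired-end reads and mapped the reads with HISAT2; the deposited counts per gene come from HTSeq (version 0.6.1p2 per the labels). The deposited FPKM values are the authors' own, fragments per kilobase of gene and library size, and were used for gene lengths and as an alternative. CPM was computed from the counts. The 47 members, the symbol lists and the tests were chosen with earlier results of these data known. Named are all members with a symbol, the 10 LOC members with the highest CPM and the 5 with the highest ratio among those with 100 or more counts. Counts were fitted with edgeR 4.0.16 (TMM, filterByExpr, robust quasi-likelihood, Benjamini-Hochberg, R 4.3.3), with and without non-irradiated replicate 3. The fits were tested on simulated data. The simulated counts had the same spread in every library, with no outlying pool and no close pair. They therefore say nothing about how the fits handle these features. Alternatives were DESeq2 1.42.0, limma 3.58.1 on log2(FPKM + 1) and log2(FPKM + 0.1), other scalings and filters, a replicate block, and each library left out. Libraries held 13192748 to 18311658 counts. Intervals are exact binomial at 95%. Standard errors of edgeR fits were derived as the absolute log2 fold change over the square root of the test's F statistic.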

Additional observations from a re-analysis of the deposited data

How the results depend on the processing

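The rule gave the same 47 genes with TMM or DESeq2 size factors in place of the column sum. It gave 26 genes at a ratio of 8, 58 at a ratio of 3, 55 at 0.5 CPM and 39 at 2 CPM. With 1 other library left out it gave 48 to 82 genes, the highest without non-irradiated replicate 1, and set against non-irradiated replicates 1 and 2 only it gave 118. The same rule gave 1, 0 and 31 genes for irradiated replicates 1 to 3, 21 and 8 for non-irradiated replicates 1 and 2 and 7 for irradiated replicates 1 and 2 summed, an alternative chosen after seeing the data. The ratio of LOC105216255 to the next library was 9.58 with TMM and 9.57 with DESeq2 size factors, against 8.67.

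With all 6 libraries edgeR called 365 genes, DESeq2 1034, limma 193 on log2(FPKM + 1) and 212 on log2(FPKM + 0.1), and edgeR with irradiated replicates 1 and 2 summed 25. Leaving out 1 library gave 21 to 301, with 21, 27 and 138 when irradiated replicates 1, 2 and 3 were dropped in turn and 241 when non-irradiated replicate 3 was. DESeq2 called 3 members, and leaving out 1 library gave 0 to 1. Without non-irradiated replicate 3 edgeR called 241 genes, DESeq2 1155, and edgeR with the pair summed 0, where 1535 genes had an unadjusted p under 0.05. Leaving out a further library gave 0 to 1122, with 0 without irradiated replicate 1 or 2, 507 without non-irradiated replicate 1 and 1122 without non-irradiated replicate 2. Of the members, DESeq2 called 3, the fit without a filter 2, the pair summed 0 and the fits without 1 more library 0 to 4. The cause of these shifts was not tested.

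Same-numbered replicates did not deviate together (correlations -0.012, -0.095 and -0.155), so the numbers gave no sign of paired pools. With 3 pools per group these correlations cannot exclude a pairing. With the replicate number as a block, edgeR called 89 genes with all 6 libraries and 141 without non-irradiated replicate 3, with 0 members in both, and LOC105219295 had an adjusted p of 0.0593 in the block fit by edgeR. With 1 more library left out, the log2 fold change of Cht3_11 ranged from -0.03 (without non-irradiated replicate 2) to 0.69, that of Egfl8_0 from -1.07 to 0.40 (without non-irradiated replicate 1), that of LOC105216255 from -1.90 (without non-irradiated replicate 2) to -0.26 (without non-irradiated replicate 1) and that of LOC105210491 from 1.35 (without non-irradiated replicate 1) to 2.91 (without non-irradiated replicate 2). Depth limits the lowest members, where 1 count is worth 0.0546 to 0.0758 CPM.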
